A study of Homo sapiens with 24 samples.

Results

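The genes described here are 44 interferon-stimulated genes, a list chosen by name from the genes that cells switch on after interferon, among 28907 gene symbols in a table of transcript levels. All 44 were found in the table. The samples were 24 RNA libraries of A2780 and ES2, established human ovarian cancer cell lines labelled as wild type. Each line had 4 groups of 3 libraries: cells given an siRNA against the nuclear kinase VRK1 (siVRK1), cells given a control siRNA (siCtrl), cells given luteolin, a plant flavone, and cells given its solvent DMSO. No label names an interferon, a virus or a nucleic acid given to provoke a response, and all 24 libraries are without such a stimulus as far as the labels say. The luteolin dose, the times, the siRNA sequences and the number of siRNAs against VRK1 are absent from the labels used here.

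Type I interferons bind the receptor pair IFNAR1 and IFNAR2, whose kinases JAK1 and TYK2 phosphorylate STAT2. With IRF9 it enters the factor ISGF3, which moves into the nucleus and binds a short element, the interferon-stimulated response element (ISRE), before interferon-stimulated genes. Interferon gamma acts through another element, GAS, before genes such as IRF1. The products sense viral RNA, block entry or translation, or tag proteins with the ubiquitin-like ISG15, and many are also present at low levels in cells that were never given interferon.

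The promoter sequence shows which of these genes carry an ISRE core, written here as GAAA, any 2 bases and GAAA, on either strand and with overlapping matches counted. RefSeq windows of 300 bases (250 before and 50 after an annotated start, build GRCh38.p14) were found for 35 of the 44 genes. Of these 35 genes, 23 (65.7%) had a match in at least 1 window, against 4.38% of all 27305 symbols with windows. GAS (TTC, any 3 bases, GAA) was found in 10 of the 35 (28.6%), against 9.38% of all symbols. IFIT2, IFITM2, MX2, OAS2, OASL, IRF7, DHX58, USP18 and PML had no window in the reference. The sequences below are the stretches that hold the match in the genes whose levels or changes lead the results, read 5′ to 3′ on the strand of the gene, with the letters of each match in capitals.
ISG15 (chr1:1013247-1013496, plus strand): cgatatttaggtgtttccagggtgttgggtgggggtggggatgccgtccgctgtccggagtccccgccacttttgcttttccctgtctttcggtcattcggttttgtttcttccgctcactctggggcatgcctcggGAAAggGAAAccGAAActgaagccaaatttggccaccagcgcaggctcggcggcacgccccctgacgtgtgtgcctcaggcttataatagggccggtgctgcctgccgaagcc
DTX3L (chr3:122564088-122564341, plus strand): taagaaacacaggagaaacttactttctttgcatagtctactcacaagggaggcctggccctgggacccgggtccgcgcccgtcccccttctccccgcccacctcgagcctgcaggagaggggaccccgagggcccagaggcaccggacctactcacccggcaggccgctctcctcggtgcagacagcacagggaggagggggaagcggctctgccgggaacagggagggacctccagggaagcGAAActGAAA
PARP14 (chr3:122680790-122680839, plus strand): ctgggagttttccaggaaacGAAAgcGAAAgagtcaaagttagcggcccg
IFIT3 (chr10:89327821-89327904, plus strand): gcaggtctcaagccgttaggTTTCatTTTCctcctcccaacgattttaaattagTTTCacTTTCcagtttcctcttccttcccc
IFIT1 (chr10:89392487-89392549, plus strand): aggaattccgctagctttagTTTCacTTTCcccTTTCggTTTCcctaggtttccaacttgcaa
IFITM1 (chr11:313980-314054, plus strand): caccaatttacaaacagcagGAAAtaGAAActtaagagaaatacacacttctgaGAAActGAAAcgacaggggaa
IFITM3 (chr11:320866-320932, minus strand): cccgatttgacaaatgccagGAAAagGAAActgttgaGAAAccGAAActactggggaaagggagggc
BST2 (chr19:17405725-17405780, minus strand): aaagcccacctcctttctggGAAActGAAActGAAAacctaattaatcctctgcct
IFI44 (chr1:78649751-78649800, plus strand): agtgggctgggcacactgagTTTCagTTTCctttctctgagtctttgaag
LGALS3BP (chr17:78979952-78980001, minus strand): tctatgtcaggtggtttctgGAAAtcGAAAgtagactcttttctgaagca
A match is a description of the letters and does not show that a factor binds there. ISG15 and BST2 hold a pair of matches that share a GAAA, and IFIT3 and IFIT1 hold a pair on the opposite strand. The stretch of DTX3L ends with an element (chr3:122564332-122564341) that spans its annotated start. The same element lies in 1 of 2 windows of PARP9, the neighbouring gene transcribed the other way. No ISRE core was in the windows of CMPK2, SP100, HERC6, IRF1, SAMD9L, UBE2L6, STAT2, OAS1, IRF9, XAF1, IFI35 or TRIM25.

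Values are TPM, transcript levels that are scaled per transcript length and keep no record of sequencing depth, so precision rests on the spread between libraries. The labels do not say whether the 3 libraries of a group are separate cultures, and the p-values measure the spread between these libraries, which can be technical. VRK1 itself was at 7.98 to 11.3 TPM in A2780 siVRK1 libraries against 53.6 to 55.2 TPM in A2780 siCtrl libraries, and at 2.92 to 4.2 TPM in ES2 siVRK1 libraries against 62.2 to 66.2 TPM in ES2 siCtrl libraries. Leukocyte markers summed to 36 to 79 TPM in ES2, nearly all of it CD68, and to 2.9 to 8.14 TPM in A2780, with CD3D and CD3E at 0 in both lines. Epithelial and ovarian carcinoma markers summed to 649 to 1012 TPM in ES2 and 43.1 to 74.2 TPM in A2780, with MUC16 at 0 in all ES2 groups and at or near 0 in A2780.

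A gene was tested in a line where it reached 1 TPM in at least 3 of its 12 libraries. This held for 31 of the 44 genes in both lines, for another 6 in A2780 alone (BST2, IFIT1, IFITM1, HERC5, IFIH1 and OAS2) and for another 2 in ES2 alone (IFI44 and SAMD9). CMPK2, OAS1, OASL, SAMD9L and DHX58 were too low to judge in either line. DHX58 reached 1 TPM in 3 of all 24 libraries, so it is among the 40 genes tested between lines, and its lower call there (0.347 TPM in ES2 and 0.651 TPM in A2780 controls, with overlap) is of a gene too low to judge. OAS1 did not pass 0.703 TPM in any library, and OASL did not pass 0.332 TPM. Interferon genes themselves were near 0: all 13 listed alpha interferons and the other type I and type III genes stayed under 1 TPM in every library, and IFNB1 was listed at 0 in all 24.

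**Figure D1:**
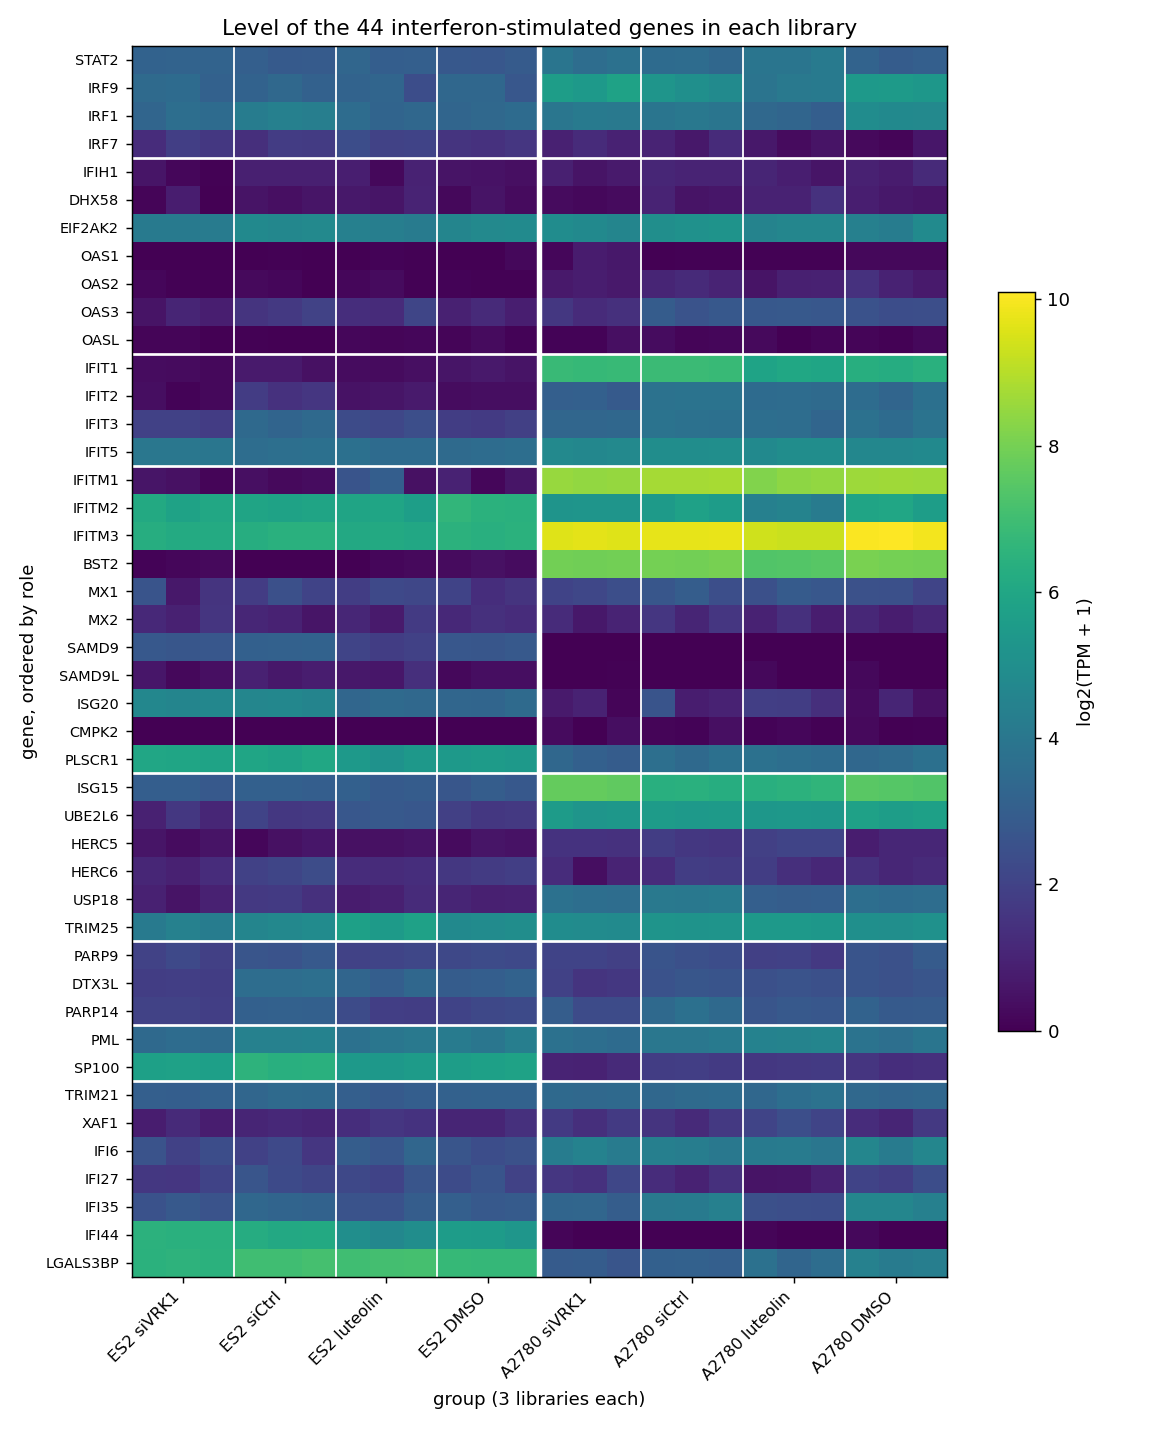
Level of each of the 44 genes (rows, ordered by role) in each of the 24 libraries (columns, in 8 groups of 3), as log2(TPM + 1) by colour. IFITM3, IFITM1, BST2, ISG15 and IFIT1 are bright across the 12 A2780 libraries, and IFI44, SP100, LGALS3BP and PLSCR1 across the 12 ES2 libraries.

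The control cells of the lines differed in most of these genes. Over the 6 control libraries of each line (siCtrl and DMSO), 12 of 40 tested genes were called higher in ES2 and 25 lower at a limma adjusted p under 0.05, where 34.3% and 49.4% of all 14328 genes were. The median gene was 0.17 lower in ES2 on the log2 scale of TPM + 1 (-0.17), a shift that rescaling the libraries by median ratios moved to -0.03, so differences here are given after taking the median away, and calls are those of the fit before that. With that scaling the counts were 12 and 21.

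The widest gaps were in membrane proteins that block virus entry or release, although the group was split: of its 9 tested restriction factors 4 were called lower in ES2 (BST2, IFITM1, IFITM3 and MX1) and 4 higher (IFITM2, ISG20, PLSCR1 and SAMD9). IFITM2 averaged 74 TPM in ES2 and 52.5 TPM in A2780 controls, and PLSCR1 51.2 and 11 TPM. IFITM1, which sits at the cell surface, had 0.192 to 0.941 TPM in 5 of 6 ES2 control libraries and 0.121 TPM in the other, against 393 to 436 TPM in A2780 control libraries, a relative log2 difference of -8.08 ± 0.27. BST2, the tether that holds budding virions to the membrane, averaged 0.143 TPM in ES2 controls and 253 TPM in A2780 controls (-7.64 ± 0.05). IFITM3, the endosomal member of the family, averaged 84.1 TPM in ES2 and 946 TPM in A2780 (-3.30 ± 0.03). IFIT1, which binds viral RNA lacking cap methylation, averaged 0.549 TPM in ES2 and 97.6 TPM in A2780 (-5.80 ± 0.05). ISG15 averaged 6.73 TPM in ES2 and 126 TPM in A2780 (-3.79 ± 0.06), and UBE2L6, the conjugating enzyme that carries ISG15 to its targets, 2.42 and 48.1 TPM in the same order (-3.68 ± 0.09). No ES2 control library reached an A2780 one: BST2 spanned 0 to 0.376 and 244 to 266 TPM over the 6 controls of ES2 and of A2780, IFIT1 0.387 to 0.676 and 75.5 to 118 TPM, ISG15 5.51 to 7.6 and 78.4 to 182 TPM, and UBE2L6 2.08 to 3.06 and 43.6 to 54.3 TPM.

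The reverse order held for other genes. IFI44, a cytoplasmic protein first found by its induction, averaged 57.1 TPM in ES2 controls and 0.0255 TPM in A2780 controls (5.95 ± 0.06). SP100, a scaffold of PML nuclear bodies, averaged 68.8 TPM in ES2 and 2.1 TPM in A2780 (4.63 ± 0.06). LGALS3BP, a secreted glycoprotein, averaged 118 and 13.3 TPM in that order (3.34 ± 0.06), and SAMD9, a poxvirus restriction factor, 6.73 and 0.00286 TPM (3.10 ± 0.05). ISG20, an RNA exonuclease, averaged 16.5 TPM in ES2 controls and 1.41 TPM in A2780 controls (3.14 ± 0.22), and the A2780 mean includes 1 siCtrl library at 5.09 TPM, with the other 5 between 0.236 and 1.09 TPM. Over the controls IFI44 spanned 39 to 74.6 TPM in ES2 and 0 to 0.153 TPM in A2780, SP100 48.7 to 91.4 and 1.48 to 2.66 TPM, LGALS3BP 105 to 138 and 7.4 to 20.6 TPM, and SAMD9 5.54 to 7.97 and 0 to 0.0172 TPM, with no overlap in any. Of the transcription factors, IRF9 was lower in ES2 (8.28 against 37 TPM, -1.87 ± 0.14), IRF7 higher (2.02 against 0.629 TPM, 1.10 ± 0.13), and IRF1 (14.3 against 20.9 TPM, -0.36 ± 0.08) and STAT2 (6.35 against 8.84 TPM, -0.24 ± 0.07) lower. The control libraries of the lines overlapped for IRF1 and STAT2.

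**Figure D2:**
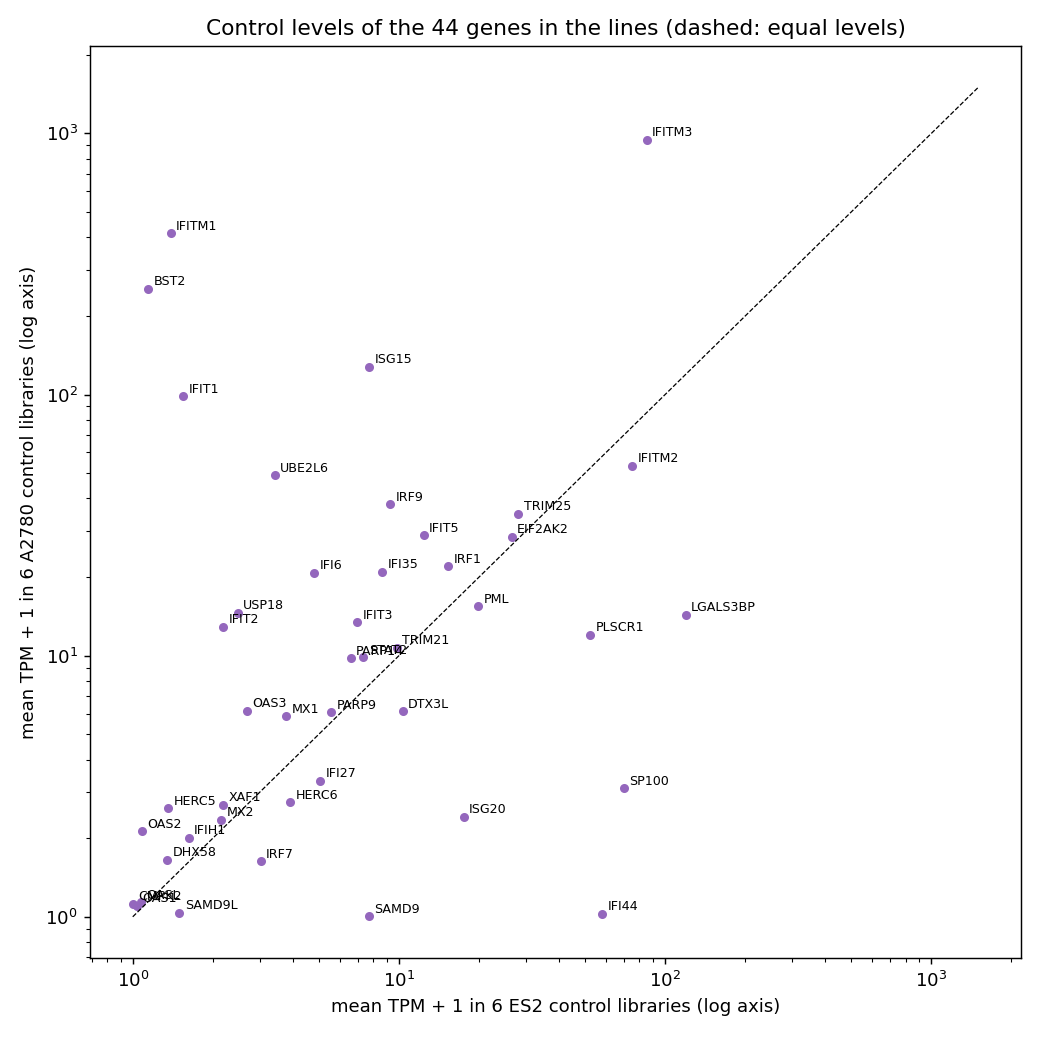
Mean TPM + 1 of each gene in the 6 ES2 control libraries (horizontal) and the 6 A2780 control libraries (vertical), both on log axes, with a dashed line of equal levels. IFITM1, BST2, IFIT1, ISG15 and UBE2L6 lie far above the line, and IFI44, SP100, LGALS3BP, SAMD9 and ISG20 far below it.

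The lines also read IFITM2 from different transcripts. In ES2 a protein-coding transcript of 659 bases held 82.5% to 90.7% of the IFITM2 TPM by group, and in A2780 it held at most 0.741%. A2780 split IFITM2 between a coding transcript of 605 bases (36.6% to 73.4%) and one classed for nonsense-mediated decay (24.6% to 60.6%). IFITM1, IFITM2 and IFITM3 are neighbours with near-identical sequence, and kallisto, named in the submitters' processing notes, divides reads between such copies, so the split between them is uncertain. IRF9, IFI27 and IRF7 are listed with transcripts in pairs of equal TPM, and their gene values are sums over the copies. Coding transcripts held 2.97% to 11.1% of the MX1 TPM, by group, and 1.77% to 12.7% of the MX2 TPM. They held 7.87% to 29% of the IRF7 TPM and 20% to 37.3% of the IRF9 TPM. So the MX1 and MX2 values are mostly of transcripts not classed as coding. For IRF7 and IRF9 the shares are of sums that count the copies, so they do not settle which class prevails. All 30 IRF9 transcripts had a partner of equal TPM. In A2780 luteolin cells coding transcripts held 20% and retained-intron transcripts 29.7% of the IRF9 TPM, and in A2780 DMSO cells 34.1% and 15.2%. The rest of the IRF9 TPM lay on transcripts of neither class, so each share may be understated.

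In ES2 the siRNA against VRK1 went with lower levels of most of these genes. Of 33 tested, 20 fell, 3 rose and 10 did not pass the test, where 28% of all 12507 genes fell and 26.8% rose. The median of the 33 log2 changes was -0.50, and the median of all genes -0.00. In 22 of the 23 called genes the siVRK1 and siCtrl libraries did not overlap, as in 97.5% of all 6856 called genes.

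The largest falls were in genes of ADP-ribosylation and of the IFIT family. DTX3L, a ubiquitin ligase that works as a complex with the ADP-ribosyltransferase PARP9, had 2.66, 2.58 and 2.55 TPM in ES2 siVRK1 libraries against 11.1, 11.3 and 11.8 TPM in ES2 siCtrl libraries, a log2 change of -1.79 ± 0.10 (adjusted p = 2.45e-08). All 3 knockdown libraries were far below every control, and the gap is the widest of the 33 on this scale. PARP9 had 3.67, 2.77 and 2.99 TPM in ES2 siVRK1 cells against 5.27, 4.93 and 6.05 TPM in ES2 siCtrl cells (-0.63 ± 0.11, adjusted p = 0.000374). PARP14, a further enzyme of this family encoded near both on chromosome 3, had 2.96, 2.69 and 2.98 TPM against 7.6, 7.84 and 7.63 TPM (-1.16 ± 0.12, adjusted p = 5.49e-06). So all 3 genes of the group fell without overlap, and the change of PARP9 was the smallest of them. The element printed for DTX3L lies in a promoter window of PARP9 as well, and its part in these falls was not tested.

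IFIT3, which stabilises IFIT1 on RNA, had 2.92, 2.5 and 2.83 TPM in ES2 siVRK1 libraries against 9.8, 8.46 and 9.84 TPM in ES2 siCtrl libraries (-1.46 ± 0.11, adjusted p = 2.11e-07). IFIT2 had 0.0743, 0.164 and 0.284 TPM against 2.49, 1.74 and 2.04 TPM (-1.39 ± 0.15, adjusted p = 6.14e-06), a change that the added 1 TPM understates. IFIT5 went the other way, with 15, 14.8 and 15.2 TPM in ES2 siVRK1 cells against 11.3, 12 and 12.4 TPM in ES2 siCtrl cells (0.31 ± 0.07, adjusted p = 0.00345). IFIT1 was too low in ES2 to be tested, at 0.151 to 0.271 TPM with siVRK1 and 0.387 to 0.676 TPM with siCtrl.

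Both nuclear body genes fell. PML, the protein that builds these bodies, had 11, 10.2 and 9.92 TPM in ES2 siVRK1 libraries against 20.8, 20.5 and 21 TPM in ES2 siCtrl libraries (-0.94 ± 0.10, adjusted p = 4.74e-06). SP100 had 53.8, 51.5 and 52.8 TPM against 91.4, 80.7 and 84 TPM (-0.68 ± 0.06, adjusted p = 1.82e-06). Each gene had a narrow range within its group and a clear gap between groups.

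Of the ISG15 system, 4 of 5 tested genes fell in ES2. HERC6, a ligase of the same family as HERC5, had 0.91, 1.4 and 1.15 TPM in siVRK1 libraries against 2.88, 3.32 and 4.11 TPM in siCtrl libraries (-1.04 ± 0.14, adjusted p = 3.45e-05), a gap without overlap. The other falls were the ISG15 protease USP18 (0.753 against 2.04 TPM, -0.80 ± 0.17), UBE2L6 (1.37 against 2.46 TPM, -0.56 ± 0.17) and the ubiquitin ligase TRIM25 (18.4 against 25.7 TPM, -0.46 ± 0.10). ISG15 itself had 7.08, 6.01 and 7.07 TPM with siVRK1 against 7.45, 7.6 and 7.18 TPM with siCtrl (-0.13 ± 0.10, adjusted p = 0.302). Both RNA sensing genes tested fell: EIF2AK2, the kinase PKR that halts translation on double-stranded RNA, averaged 17.1 TPM in siVRK1 cells and 25.7 TPM in siCtrl cells (-0.56 ± 0.07), and the 2-5A synthetase OAS3 0.778 and 2.35 TPM in the same order (-0.92 ± 0.23). LGALS3BP (87.5 against 131 TPM, -0.58 ± 0.04), IFI35 (5.32 against 8.65 TPM, -0.61 ± 0.13), the antibody receptor and ligase TRIM21 (7.4 against 9.69 TPM, -0.35 ± 0.08) and SAMD9 (5.67 against 7.73 TPM, -0.39 ± 0.09) were also called lower, as were IFITM3 (73.3 against 82.2 TPM, -0.16 ± 0.05) and IFI27 (2.39 against 4.13 TPM, -0.59 ± 0.21). Markers of cell types moved with the knockdown in ES2 as well. Of 12 leukocyte markers the 2 tested went opposite ways: CD68 averaged 75.4 TPM in siVRK1 cells and 36.7 TPM in siCtrl cells (1.02 ± 0.08), and LYZ 0.487 and 1.31 TPM (-0.62 ± 0.18). Of 6 tested epithelial markers KRT18 (262 against 531 TPM, -1.02 ± 0.04) and KRT8 (52.7 against 88 TPM, -0.73 ± 0.06) fell, the summed list being at 649 to 689 TPM in siVRK1 and 975 to 1001 TPM in siCtrl libraries. The fibroblast list, led by COL1A1 (-0.65 ± 0.13), summed to 54.5 to 67.1 TPM in siVRK1 and 86.6 to 102 TPM in siCtrl libraries, and the endothelial list, led by TIE1 (0.59 ± 0.05), to 178 to 194 TPM in siVRK1 and 129 to 135 TPM in siCtrl libraries. Of 3 tested endothelial markers TIE1 alone was called, and of 4 tested fibroblast markers 2 fell and none rose, where 26.8% of all genes rose and 28% fell. CDH5 was at 31.1 to 31.8 TPM in siVRK1 and 29.9 to 31.4 TPM in siCtrl libraries. KDR, too low to be tested, was at 0.282 to 0.354 TPM in siVRK1 and 0.677 to 0.969 TPM in siCtrl libraries. In ES2 DMSO libraries CD68 was at 56.6 to 66.8 TPM, TIE1 at 134 to 145 TPM, KRT18 at 398 to 433 TPM and KRT8 at 66.6 to 70 TPM. Each of these lay between the siCtrl and the siVRK1 libraries. COL1A1 was at 106 to 128 TPM in ES2 DMSO libraries, above both, and LYZ at 0.166 to 0.513 TPM. The part of the cell type markers in the results was not tested.

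Among the transcription factors IRF1 fell in ES2, with 11.7, 10.4 and 8.71 TPM in siVRK1 libraries against 18.1, 19.8 and 19.2 TPM in siCtrl libraries (-0.84 ± 0.11, adjusted p = 3.19e-05). STAT2 had 8.33, 8.26 and 7.94 TPM against 7.33, 6.22 and 6.42 TPM (0.26 ± 0.10, adjusted p = 0.0376). IRF9 (9.49 against 8.46 TPM) and IRF7 (2.07 against 2.17 TPM) were not called. The third rise was IFI44, with 83.3, 85 and 89.5 TPM against 74.6, 67 and 69.6 TPM (0.28 ± 0.09, adjusted p = 0.0129). The calls of STAT2, IFI27, IFITM3 and UBE2L6 did not all hold: STAT2 lost its call without siVRK1 a, b or 3 or siCtrl 2 or 3 (adjusted p of 0.0595 to 0.119), IFI27 without siVRK1 a or 3 or siCtrl 1 or 2 (0.0503 to 0.127), IFITM3 without siVRK1 a or b or siCtrl 2 or 3 (0.0559 to 0.0732), and UBE2L6 without siVRK1 b or 3 or siCtrl 1 (0.0547 to 0.0684). Summed over coding transcripts alone, STAT2 (adjusted p = 0.287), IFI44 (0.0551) and IFI27 (0.0912) were not called.

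**Figure D3:**
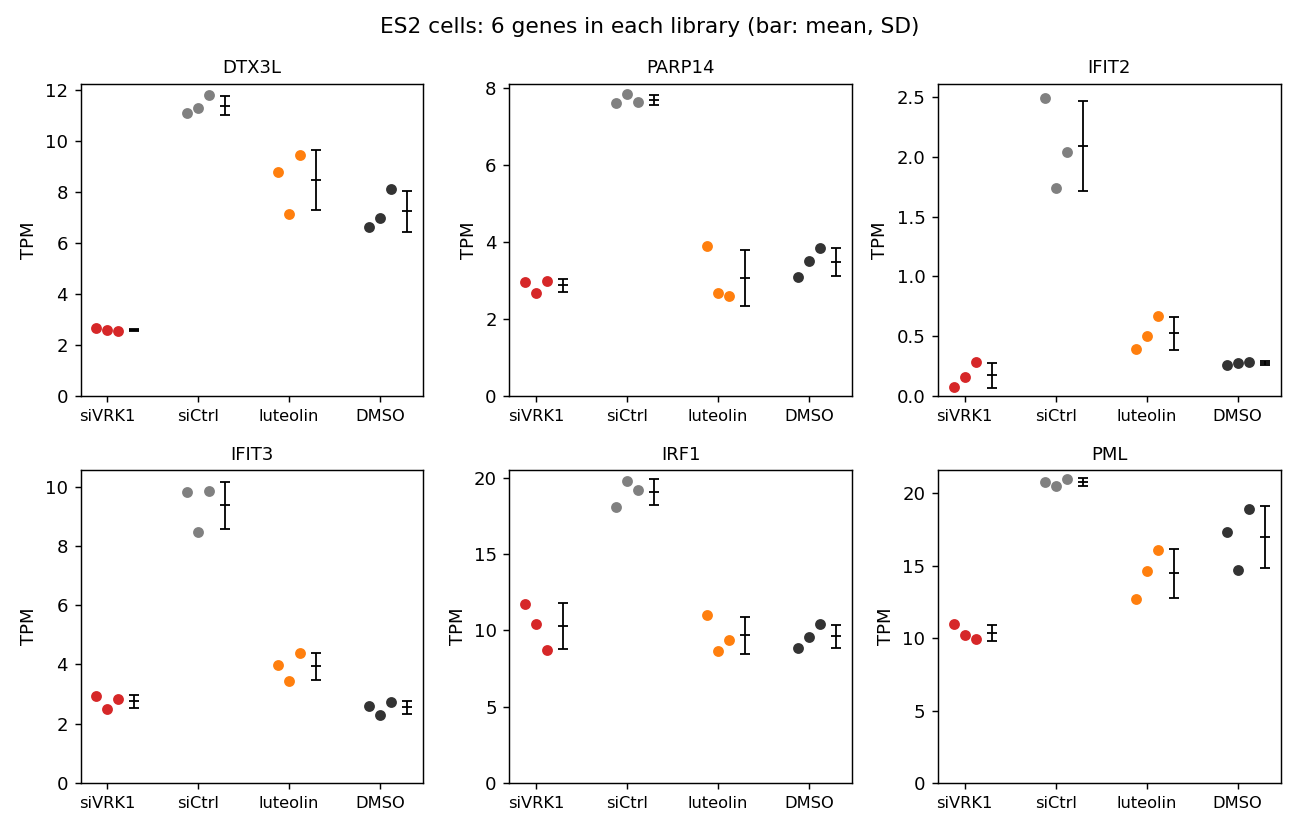
TPM of DTX3L, PARP14, IFIT2, IFIT3, IRF1 and PML in each ES2 library (points) of the siVRK1, siCtrl, luteolin and DMSO groups, with the mean and SD of 3 libraries as a bar. In each panel the 3 siCtrl libraries are the highest of the 12, and the siVRK1 libraries lie below them.

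In A2780 the knockdown went with lower levels of 17 of these genes and higher levels of 2. Of 37 tested, 17 fell, 2 rose and 18 did not pass the test, where 27% of all 13012 genes fell and 13.8% rose. The median of the 37 log2 changes was -0.33 against -0.08 for all genes. Of all calls 33.8% were rises, and 49.5% with median-of-ratios scaling, under which 14 members fell and 4 rose, the added rises being STAT2 and IFI27. Without siVRK1 library 2 the rises numbered 4 as well.

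ISG15 rose while the genes of its enzymes did not. It had 208, 210 and 197 TPM in A2780 siVRK1 libraries against 82.5, 83.3 and 78.4 TPM in A2780 siCtrl libraries, a log2 change of 1.32 ± 0.06 (adjusted p = 1.88e-08). The groups are tight and far apart. USP18 (11.7 against 16.1 TPM, -0.43 ± 0.07), TRIM25 (28 against 36.3 TPM, -0.36 ± 0.06) and HERC6 (0.905 against 2.12 TPM, -0.74 ± 0.24) fell, and UBE2L6 (41 against 44.6 TPM, -0.12 ± 0.07) and HERC5, the main ISG15 ligase in human cells (1.77 against 2.19 TPM, -0.20 ± 0.13), were not called. HERC6 lost its call without siVRK1 2 or siCtrl 2 or 3 (adjusted p of 0.084 to 0.123). The other rise was IRF9, the DNA-binding subunit of ISGF3, with 47.6, 42.1 and 55.1 TPM against 37.7, 31.3 and 27.6 TPM (0.57 ± 0.12, adjusted p = 0.00205). Its partner STAT2 had 14.1, 11.2 and 12.5 TPM against 10.4, 10.9 and 9.35 TPM (0.27 ± 0.11, adjusted p = 0.0602), and IRF1 (15.6 against 14.6 TPM) and IRF7 (1.06 against 0.979 TPM) were not called.

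The falls in A2780 were led by OAS3, which had 2.08, 1.35 and 1.65 TPM in siVRK1 libraries against 6.58, 5.05 and 5.94 TPM in siCtrl libraries (-1.35 ± 0.12, adjusted p = 4.13e-06). IFI35, a leucine zipper protein that pairs with NMI, had 8.82, 9.21 and 6.84 TPM against 16, 16.7 and 19.8 TPM (-1.0 ± 0.12, adjusted p = 3.2e-05). PARP14 had 6.86, 3.98 and 4 TPM against 9.88, 12.2 and 9.82 TPM (-1.0 ± 0.16, adjusted p = 0.000421), with 1 knockdown library above the other two. DTX3L had 2.85, 1.87 and 2.14 TPM against 4.91, 5.5 and 5.19 TPM (-0.92 ± 0.12, adjusted p = 6.82e-05), and PARP9 3.13, 3.09 and 2.74 TPM against 5.21, 4.57 and 4.24 TPM (-0.51 ± 0.13, adjusted p = 0.00698). IFIT2 had 7.31, 7.46 and 6.34 TPM against 12.9, 13.2 and 13.5 TPM (-0.82 ± 0.10, adjusted p = 5.81e-05), and SP100 0.992, 0.964 and 1.28 TPM against 2.59, 2.66 and 2.28 TPM (-0.76 ± 0.12, adjusted p = 0.000357).

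Several of the most abundant members, unlike ISG15, were not called in A2780 with the knockdown. IFITM3 averaged 788 TPM in siVRK1 cells and 847 TPM in siCtrl cells (-0.10 ± 0.05, adjusted p = 0.084), BST2 246 and 251 TPM (-0.03 ± 0.04) and IFIT1 111 and 116 TPM (-0.07 ± 0.05), and none of these was called. IFITM1 (362 against 428 TPM, -0.24 ± 0.05) and IFITM2 (37.2 against 48.6 TPM, -0.37 ± 0.10) were called lower, and neither call held with median-of-ratios scaling (adjusted p of 0.0637 and 0.0869). MX1, the gene of a GTPase that traps viral capsids, was called lower (3.65 against 5.53 TPM, -0.48 ± 0.17), with 94.5% of its TPM in siVRK1 and 95.6% in siCtrl cells on retained-intron transcripts, but the groups overlapped and the call was lost without siVRK1 1 or 2 or siCtrl 1 or 2 (adjusted p of 0.083 to 0.16). IFITM2 lost its call without siCtrl 2 (0.0598).

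Across the lines, 12 genes fell with siVRK1 in both: DTX3L, PARP9, PARP14, IFIT2, IFIT3, OAS3, PML, SP100, IFI35, HERC6, USP18 and TRIM25. They are 63.2% of the 19 ES2 falls and 75% of the 16 A2780 falls among the 31 genes tested in both lines, and the lines share no library. Over the 11304 genes of all kinds tested in both lines, 15.2% fell in both, which is 54.7% of the ES2 falls and 52% of the A2780 falls. No gene rose in both, and IFIT5 rose in ES2 and fell in A2780. Of the 12, 6 were also called higher in siCtrl than in DMSO cells in both lines: IFIT2, OAS3, PARP14, PML, SP100 and USP18. Of all genes, 34.7% in ES2 and 47.2% in A2780 were called higher there, each share being of a single line. The share of all genes called higher in both lines was not computed for this contrast. So the 6 cannot be set against it. The A2780 calls depended on the scaling: 13 of 37 members were higher, and 4 with median-of-ratios scaling. Of the 6 genes named, USP18 alone was among those 4 in A2780. The siVRK1 comparisons share these siCtrl libraries. Among genes with an ISRE core, 11 of 18 tested fell and 2 rose in ES2, and 9 of 21 fell and 1 rose in A2780. Among genes with windows and no match, 6 of 9 fell and 1 rose in ES2, and 4 of 9 fell and 1 rose in A2780. Of all genes tested in each line, 28% fell and 26.8% rose in ES2, and 27% fell and 13.8% rose in A2780.

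**Figure D4:**
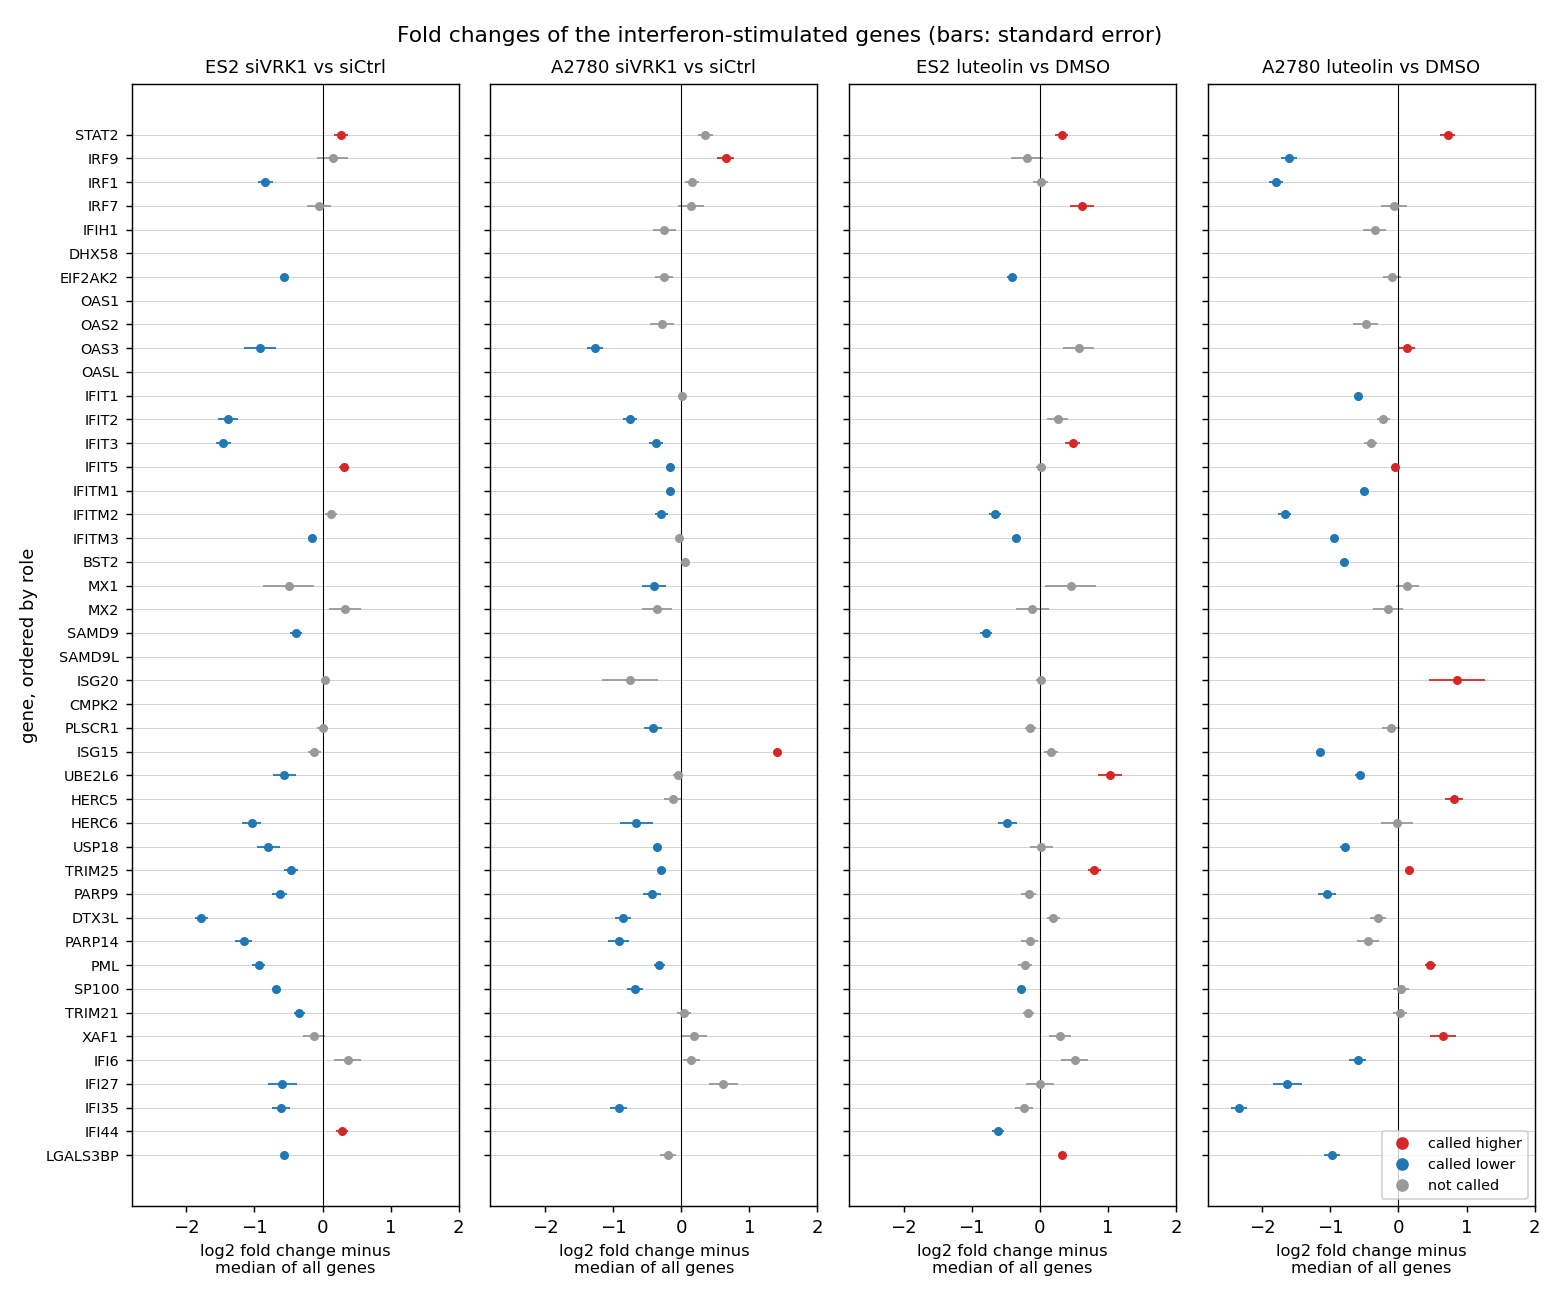
Log2 fold change of each tested gene (rows, ordered by role) in 4 comparisons, less the median of all genes, with standard errors as bars. Red points were called higher, blue lower and grey neither. DTX3L, PARP14, IFIT2 and OAS3 lie left of 0 in both siVRK1 panels, and ISG15 lies at 1.40 in the A2780 siVRK1 panel.

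A direct test of the difference between the lines (the ES2 effect minus the A2780 effect) called 9 of 40 genes lower and 3 higher, where 13.2% and 20.7% of all genes were. Rises made 61% of all calls and 44.7% with median-of-ratios scaling, under which 13 members were lower and 2 higher. The widest difference was that of ISG15 (-1.45 ± 0.11, adjusted p = 4.24e-09). IFIT3 (-1.02 ± 0.14), IRF1 (-0.92 ± 0.15) and DTX3L (-0.86 ± 0.15) were lower in the ES2 effect than in the A2780 effect. IFIT5 (0.55 ± 0.09) and the membrane scramblase PLSCR1 (0.49 ± 0.16) differed the other way, PLSCR1 with 59.9, 57.2 and 61.1 TPM in ES2 siVRK1 against 60, 55 and 63.5 TPM in ES2 siCtrl libraries, and 9.25, 7.67 and 6.61 TPM in A2780 siVRK1 against 12, 9.86 and 12.1 TPM in A2780 siCtrl libraries. The call of IFITM2 (0.49 ± 0.15, adjusted p = 0.0145) was lost with median-of-ratios scaling (adjusted p = 0.103) and over coding transcripts (0.268). IFI27 differed by -1.13 ± 0.31, with 2.39 TPM in ES2 siVRK1 against 4.13 TPM in ES2 siCtrl and 2.42 TPM in A2780 siVRK1 against 1.32 TPM in A2780 siCtrl. PARP14 (-0.17 ± 0.21, adjusted p = 0.573), PARP9 (-0.13 ± 0.16, adjusted p = 0.572), OAS3 (0.43 ± 0.26, adjusted p = 0.223) and SP100 (0.07 ± 0.11, adjusted p = 0.656) did not pass this test. Without A2780 siCtrl library 2 the higher calls numbered 5, and the call of PLSCR1 was lost without A2780 siVRK1 3, A2780 siCtrl 1 or 3 or ES2 siCtrl 2 (adjusted p of 0.0527 to 0.0698).

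The control siRNA group itself stood apart from the solvent group. In ES2, 19 of 33 genes were called higher in siCtrl than in DMSO cells and 2 lower, where 34.7% and 21.5% of all genes were. The median of the 33 log2 differences was 0.30 against 0.08 for all genes. IFIT3 averaged 9.37 TPM in ES2 siCtrl cells and 2.55 TPM in ES2 DMSO cells (1.55 ± 0.11, adjusted p = 1.48e-07), IFIT2 2.09 and 0.277 TPM (1.27 ± 0.15), ISG20 23.6 and 9.42 TPM (1.24 ± 0.07, with 23.6, 24.8 and 22.4 against 9.01, 8.91 and 10.3 TPM), PARP14 7.69 and 3.48 TPM (0.96 ± 0.12) and IRF1 19.1 and 9.6 TPM (0.92 ± 0.11). IFITM2 (58.5, 55.9 and 59.2 against 98.3, 87.1 and 84.8 TPM, -0.63 ± 0.09) and IFI6 (2.82, 3.75 and 2.02 against 5.25, 4.3 and 4.61 TPM, -0.59 ± 0.20) were lower. The lower call of IFI6 was lost without siCtrl 1 or 3 or DMSO 1 or 3 (adjusted p of 0.052 to 0.112), which left 1 lower call. STAT2 (6.65 against 6.04 TPM), IRF7 (2.17 against 1.88 TPM) and IRF9 (8.46 against 8.11 TPM) were not called.

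The siVRK1 comparison shares the siCtrl libraries, so the 3 groups are set side by side. IFIT3 was at 2.5 to 2.92 TPM in ES2 siVRK1, 8.46 to 9.84 TPM in ES2 siCtrl and 2.3 to 2.74 TPM in ES2 DMSO libraries, so the siVRK1 and DMSO ranges overlapped. IRF1 was at 8.71 to 11.7, 18.1 to 19.8 and 8.86 to 10.4 TPM in the same groups, and PARP14 at 2.69 to 2.98, 7.6 to 7.84 and 3.1 to 3.85 TPM. DTX3L did not follow this order, with 2.55 to 2.66 TPM in siVRK1, 11.1 to 11.8 TPM in siCtrl and 6.62 to 8.13 TPM in DMSO libraries. Among the 4 ES2 groups, siCtrl had the highest mean for 19 of the 33 genes and siVRK1 the lowest for 15. Whether the siRNA and solvent groups were handled alike is not given in the sources used here, and siRNA delivery, DMSO and handling cannot be told apart between them.

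In A2780 the same contrast depended on the scaling. The median gene was 0.24 higher in siCtrl than in DMSO cells, and 0.00 with median-of-ratios scaling, and the share of rises among all calls was 81.3%, and 46% with it. Of 37 members 13 were called higher and 8 lower, where 47.2% and 10.9% of all genes were, and with the other scaling 4 were higher and 13 lower. Without DMSO library 2 the higher calls numbered 8. Less the median (the calls being those before it is taken away), LGALS3BP differed by -1.46 ± 0.12 (7.66, 7.74 and 7.4 TPM in siCtrl against 20.6, 17.3 and 19.2 TPM in DMSO libraries), ISG15 by -1.31 ± 0.06 (81.4 against 172 TPM), IFI27 by -1.14 ± 0.21 (1.41, 0.935 and 1.62 against 3.08, 2.65 and 4.22 TPM), IRF1 by -1.10 ± 0.10 (14.6 against 27.3 TPM) and IRF9 by -0.62 ± 0.12 (32.2 against 41.9 TPM). HERC5 (2.53, 2.09 and 1.94 against 0.764, 1.15 and 1.15 TPM, 0.41 ± 0.13), EIF2AK2 (31.2, 33.9 and 35 against 20, 17.7 and 27.3 TPM, 0.37 ± 0.13), IFIT1 (118, 118 and 112 against 78.6, 75.5 and 83 TPM, 0.31 ± 0.05) and USP18 (16.1, 15.6 and 16.7 against 11.4, 10.6 and 11.1 TPM, 0.27 ± 0.07) were higher under both scalings. PARP14 (10.6 against 6.89 TPM, 0.31 ± 0.16) was not called with the other scaling (adjusted p = 0.104), nor was STAT2 (10.2 against 7.46 TPM, 0.16 ± 0.11, adjusted p = 0.197). IRF9 lost its call without siCtrl 3 or DMSO 2 (adjusted p of 0.0747 and 0.0566). ISG15, which was higher with siVRK1 than with siCtrl, was at 197 to 210 TPM in siVRK1, 78.4 to 83.3 TPM in siCtrl and 161 to 182 TPM in DMSO libraries. Among the 4 A2780 groups, before any rescaling, siCtrl had the highest mean for 15 of the 37 genes and siVRK1 the lowest for 16.

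With luteolin more of these genes fell than rose in A2780, and similar numbers rose and fell in ES2. In A2780 the median of all genes was 0.22 higher in luteolin than in DMSO cells, and -0.02 with median-of-ratios scaling, and the share of rises among all calls was 69.7% and 46.3% under these scalings. Of 37 members 8 were called higher and 15 lower, where 45.6% and 19.9% of all genes were, and with the other scaling 5 were higher and 19 lower. Without luteolin library 2 the rises numbered 5. Changes in A2780 luteolin cells are given less the median of all genes, and the call and adjusted p beside a change belong to the fit before the median is taken away.

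Of the transcription factors in A2780, IRF1 and IRF9 fell and STAT2 rose. IRF1 had 9.61, 8.9 and 6.99 TPM in luteolin libraries against 28.9, 26.8 and 26.1 TPM in DMSO libraries (-1.80 ± 0.10, adjusted p = 4.75e-08). IRF9 had 13.6, 15.8 and 16.8 TPM against 41.5, 44.2 and 39.9 TPM (-1.61 ± 0.12, adjusted p = 5.63e-07). STAT2 had 14.3, 14.3 and 17 TPM against 8.27, 6.7 and 7.42 TPM (0.72 ± 0.11, adjusted p = 7.82e-06). So STAT2 and IRF9, both subunits of ISGF3, differed in direction, with no overlap of groups in either. IRF7 was low, at 0.232 to 0.566 TPM against 0.104 to 0.527 TPM, and was not called.

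IFI35 had the largest fall of the set in A2780, with 4.56, 4.39 and 4.17 TPM in luteolin libraries against 23.7, 23.9 and 19.9 TPM in DMSO libraries (-2.34 ± 0.12, adjusted p = 1.31e-08). IFITM2 had 20.2, 22.2 and 17.3 TPM against 58.1, 62.5 and 48.5 TPM (-1.67 ± 0.10, adjusted p = 1.24e-07), and the share of its TPM on the transcript classed for decay was 60.6% in luteolin and 24.6% in DMSO cells. IFI27, a mitochondrial protein, had 0.466, 0.48 and 0.916 TPM against 3.08, 2.65 and 4.22 TPM (-1.63 ± 0.21, adjusted p = 7.11e-05). ISG15 had 81.9, 89.5 and 96.2 TPM against 182, 172 and 161 TPM (-1.15 ± 0.06, adjusted p = 6.14e-08). IFITM3 (635 against 1045 TPM, -0.94 ± 0.05), BST2 (169 against 254 TPM, -0.80 ± 0.04), IFIT1 (60.2 against 79 TPM, -0.60 ± 0.05) and IFITM1 (324 against 397 TPM, -0.51 ± 0.05) fell as well, so BST2 and the 3 IFITM genes were all lower. The sum over the 44 genes was 1600 to 1632 TPM in luteolin and 2299 to 2431 TPM in DMSO libraries. Retained-intron transcripts of all genes held 5.23% ± 0.158 of TPM in A2780 luteolin and 3.38% ± 0.114 in A2780 DMSO libraries (SD, n = 3 each), and the part of this in the results was not tested.

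**Figure D5:**
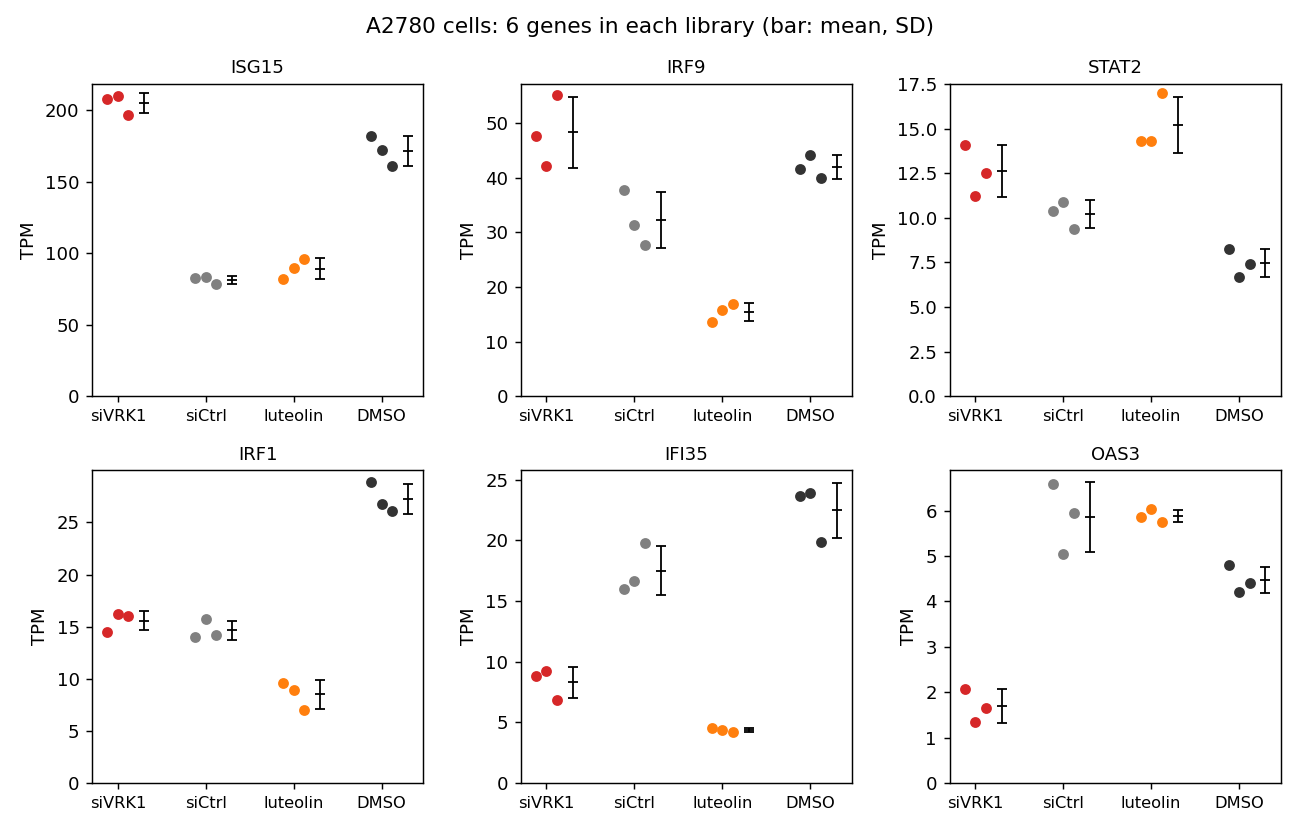
TPM of ISG15, IRF9, STAT2, IRF1, IFI35 and OAS3 in each A2780 library (points) of the siVRK1, siCtrl, luteolin and DMSO groups, with the mean and SD of 3 libraries as a bar. ISG15 is at 197 to 210 TPM with siVRK1, and IRF9, IRF1 and IFI35 are lowest with luteolin.

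The rises in A2780 were HERC5, with 2.8, 3.25 and 3.24 TPM in luteolin libraries against 0.764, 1.15 and 1.15 TPM in DMSO libraries (0.81 ± 0.13, adjusted p = 1.66e-05), the apoptosis factor XAF1, with 3.21, 4.42 and 3.18 TPM against 1.42, 1.05 and 2.16 TPM (0.65 ± 0.19, adjusted p = 0.00138), PML, with 21.1, 21.6 and 23.3 TPM against 13.5, 12 and 14.2 TPM (0.47 ± 0.08, adjusted p = 1.25e-05), TRIM25, with 42.7, 42.5 and 39.7 TPM against 31.3, 30.7 and 33.2 TPM (0.16 ± 0.06, or 0.38 before the median is taken away, adjusted p = 5.49e-05), and STAT2 above. Less firm were ISG20 (2.64, 2.52 and 1.59 TPM in luteolin against 0.236, 1.09 and 0.379 TPM in DMSO libraries, 0.86 ± 0.41), IFIT5 (28.7 against 25.5 TPM) and OAS3 (5.89 against 4.47 TPM), which were called higher in the first fit and not with median-of-ratios scaling (adjusted p of 0.0577, 0.194 and 0.386). Less the median, IFIT5 changed by -0.05 and OAS3 by 0.12, so their direction is not settled. ISG20 also lost its call without luteolin 1 or 2 or DMSO 1 or 3 (adjusted p of 0.0823 to 0.103), and the fall of IFI6 (16.4 against 21.7 TPM) was lost without luteolin 3 or DMSO 1 or 3 (0.0668 to 0.0788).

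In ES2, 6 of 33 members rose with luteolin, 7 fell and 20 did not pass the test, where 22.6% and 25.8% of all genes did so, and the median of the 33 was 0.00 against -0.00 for all genes. UBE2L6 had 5.74, 6.13 and 5.63 TPM in luteolin libraries against 2.79, 2.09 and 2.23 TPM in DMSO libraries (1.03 ± 0.17, adjusted p = 0.000396). TRIM25 had 52, 44.7 and 54 TPM against 26.7, 28.2 and 30.3 TPM (0.80 ± 0.10, adjusted p = 2.73e-05). IFIT3 had 3.99, 3.45 and 4.37 TPM against 2.61, 2.3 and 2.74 TPM (0.47 ± 0.11, adjusted p = 0.00287), and LGALS3BP 126, 133 and 137 TPM against 108, 105 and 105 TPM (0.31 ± 0.04, adjusted p = 7.31e-05). All 4 were without overlap. IRF7, a factor that amplifies type I interferon, had 4.25, 3.01 and 3.05 TPM against 1.84, 1.75 and 2.05 TPM (0.61 ± 0.18, adjusted p = 0.0125), and STAT2 8.98, 7.04 and 7.36 TPM against 5.86, 5.71 and 6.56 TPM (0.32 ± 0.10, adjusted p = 0.0188). IRF7 lost its call without luteolin 1 (adjusted p = 0.0592) and over coding transcripts (0.777), and STAT2 without luteolin 1 or DMSO 1 or 2 (0.0526 to 0.0893) and over coding transcripts (0.0725). IRF1 (9.67 against 9.6 TPM) and IRF9 (7.1 against 8.11 TPM) were not called.

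The falls with luteolin in ES2 were SAMD9, with 3.22, 2.58 and 2.83 TPM in luteolin libraries against 5.65, 5.54 and 5.98 TPM in DMSO libraries (-0.80 ± 0.09, adjusted p = 1.13e-05), IFITM2, with 58.8, 60.3 and 50.2 TPM against 98.3, 87.1 and 84.8 TPM (-0.67 ± 0.09, adjusted p = 6.39e-05), IFI44, with 30.4, 24.6 and 29.8 TPM against 47.3, 45.2 and 39 TPM (-0.62 ± 0.09, adjusted p = 7.94e-05), and IFITM3, with 67, 69.4 and 65.2 TPM against 89.9, 81.5 and 86.6 TPM (-0.35 ± 0.05, adjusted p = 0.000139). HERC6 (1.41, 1.35 and 1.47 against 2.12, 2.36 and 2.66 TPM, -0.49 ± 0.14), EIF2AK2 (19.9, 19.1 and 17.2 against 22.9, 26.1 and 27.1 TPM, -0.42 ± 0.07) and SP100 (42.9 against 52.3 TPM, -0.28 ± 0.06) were called lower too. Over coding transcripts alone HERC6 (adjusted p = 0.0538) and EIF2AK2 (0.153) were not called. ISG15 was not called in ES2, at 6.22 to 7.52 TPM against 5.51 to 6.83 TPM. Cell type markers moved with luteolin in ES2: the fibroblast list summed to 18.2 to 23 TPM in luteolin and 114 to 134 TPM in DMSO libraries (COL1A1 13 against 115 TPM, -3.07 ± 0.13), the endothelial list to 101 to 111 TPM and 174 to 186 TPM (CDH5 8.86 against 37.8 TPM, -1.98 ± 0.05, and TIE1 95.4 against 139 TPM, -0.54 ± 0.05), and the epithelial list to 720 to 790 TPM and 974 to 1012 TPM (KRT18 207 against 419 TPM, -1.02 ± 0.04). The leukocyte list summed to 57.9 to 65.3 TPM in luteolin and 56.8 to 67.2 TPM in DMSO libraries, with neither tested marker called. Of 4 tested fibroblast markers 2 fell and 1 rose, beside 25.8% and 22.6% of all genes. The rise was THY1, at 1.11 to 1.34 TPM in luteolin and 0.169 to 0.463 TPM in DMSO libraries. Of 3 tested endothelial markers 2 fell, and of 6 tested epithelial markers 3 fell, with no rise in either list. KRT7 was at 454 to 501 TPM in luteolin and 484 to 490 TPM in DMSO libraries. The part of these markers in the results was not tested.

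STAT2 and TRIM25 rose with luteolin in both lines, IFITM2 and IFITM3 fell in both, and UBE2L6 and LGALS3BP rose in ES2 and fell in A2780, so each of these patterns held for 2 of 31 genes tested in both lines. Of all 11304 genes tested in both, 15.5% rose in both, 10.5% fell in both and 8.13% were called in opposite directions. The test of the difference between the lines called 16 of 40 members higher in the ES2 effect and 9 lower, where 14.7% and 35.8% of all genes were. The median of all genes was -0.20 there and -0.02 with median-of-ratios scaling, rises made 29.1% and 50.9% of all calls under these scalings, and with the other scaling 20 members were higher and 7 lower. Less the median, with the p of the fit before it is taken away, IFI35 differed by 2.09 ± 0.17 (adjusted p = 3.71e-08), IRF1 by 1.78 ± 0.15 (adjusted p = 5.7e-08), IFI27 by 1.60 ± 0.31 (adjusted p = 0.000893), UBE2L6 by 1.57 ± 0.19 (adjusted p = 5.54e-06) and IRF9 by 1.39 ± 0.28 (adjusted p = 0.00156). HERC5 (-0.83 ± 0.17), PML (-0.71 ± 0.13) and STAT2 (-0.43 ± 0.14) differed the other way. In ES2, IFI35 had 4.92, 4.9 and 6.81 TPM with luteolin against 7.4, 6.1 and 6.36 TPM with DMSO, IRF9 8.32, 8.71 and 4.26 against 9.44, 9.28 and 5.6 TPM, and IFI27 3.58, 3.08 and 5.32 against 3.96, 5.13 and 2.95 TPM, and the ES2 groups overlapped for all 3. SAMD9 (-0.60 ± 0.10) is at or near 0 in A2780, so its difference is that of ES2 alone.

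IFITM1 also passed this test (1.95 ± 0.54 less the median, adjusted p = 0.011), with 5.23, 7.03 and 0.354 TPM in ES2 luteolin against 0.941, 0.121 and 0.497 TPM in ES2 DMSO libraries. Of its mean in ES2 luteolin cells 85.3% lay on a processed transcript of 80 bases, which was at 0 in the other ES2 groups, and over coding transcripts the difference was not called (adjusted p = 0.0855). The difference of HERC6 was -0.49 ± 0.28 less the median, and its call belongs to the value before that (-0.68, adjusted p = 0.0485). It was lost without A2780 luteolin 1 or 2, A2780 DMSO 2 or 3, any of the ES2 luteolin libraries, or ES2 DMSO 2 or 3 (adjusted p of 0.0573 to 0.149).

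The rest of the pathway was read from lists of other genes. Of 21 interferon genes, interferon gamma (IFNG) in A2780 was the single one tested: it had 2.16, 1.98 and 2.8 TPM in siVRK1 libraries against 0.716, 1.04 and 0.91 TPM in siCtrl libraries (0.81 ± 0.16, adjusted p = 0.00129), and it was listed at 0 in all 12 ES2 libraries. Of 11 receptors, kinases and STAT genes, 5 of 10 tested rose and 2 fell with siVRK1 in ES2, where 26.8% of all genes rose and 28% fell, and 3 of 11 rose and 1 fell in A2780, where 13.8% rose and 27% fell. IL10RB, a receptor chain shared by type III interferons and interleukin 10, rose in both lines, to 15.3 TPM in ES2 siVRK1 against 3.45 TPM in ES2 siCtrl cells (1.89 ± 0.13) and to 9.24 TPM in A2780 siVRK1 against 3.54 TPM in A2780 siCtrl cells (1.18 ± 0.12). The siVRK1 comparisons share the siCtrl libraries, so DMSO values are set beside them. IL10RB was at 9.51 to 10.2 TPM in ES2 DMSO and 7.06 to 8.41 TPM in A2780 DMSO libraries. Its siCtrl libraries were lower, at 2.53 to 4.21 TPM in ES2 and 3.05 to 4.24 TPM in A2780. IFNG was at 0.447 to 0.709 TPM in A2780 DMSO libraries. STAT3 rose with luteolin in A2780 (46.2 against 18.5 TPM, 1.06 ± 0.09 less the median).

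Of 21 nucleic acid sensors and adaptors, 3 of 15 tested rose and 4 fell with siVRK1 in ES2, and 1 of 12 rose and 4 fell in A2780, shares near those of all genes in these comparisons (26.8% and 28% in ES2, 13.8% and 27% in A2780). STING1, the adaptor of the DNA sensor cGAS, had 2.15, 2.37 and 2.41 TPM in ES2 siVRK1 libraries against 11.4, 11.4 and 11.9 TPM in ES2 siCtrl libraries (-1.92 ± 0.10, adjusted p = 8.79e-09) and was at most 0.438 TPM in A2780. Among 12 negative regulators, SOCS1, which inhibits JAK kinases, averaged 0.749 TPM in ES2 siVRK1 and 5.81 TPM in ES2 siCtrl cells (-1.98 ± 0.20), and IRF2, a repressor at ISRE sites, fell with siVRK1 in ES2 (6.29 against 15.1 TPM, -1.15 ± 0.08) and in A2780 (7.81 against 16.2 TPM, -0.96 ± 0.10). In that list 4 of 10 tested rose and 5 fell in ES2, and 3 of 12 rose and 3 fell in A2780, beside the same shares of all genes. In ES2 DMSO libraries STING1 was at 4.19 to 5.17 TPM, SOCS1 at 0.751 to 1.65 TPM and IRF2 at 8.88 to 10.2 TPM. The ES2 siVRK1 libraries, at 0.418 to 1.09 TPM for SOCS1, overlapped the DMSO ones. IRF2 was at 11.8 to 15.3 TPM in A2780 DMSO libraries.

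A further list held 45 other interferon-stimulated genes, a few of which, ADAR among them, also stand in the lists above. With siVRK1, 16 of 30 tested fell and 4 rose in ES2 (28% and 26.8% of all genes), and 15 of 32 fell and 6 rose in A2780 (27% and 13.8% of all genes). HELZ2 fell in both (1.08 against 3.13 TPM in ES2, 0.956 against 4.07 TPM in A2780). ZNFX1 rose in both (28.3 against 17.6 TPM in ES2, 10.1 against 6.35 TPM in A2780). ETV7 averaged 3.98 TPM in A2780 siVRK1 and 0.664 TPM in A2780 siCtrl cells (1.59 ± 0.14). With luteolin, 9 of 30 rose and 6 fell in ES2 (22.6% and 25.8% of all genes), and 11 of 32 rose and 7 fell in A2780 (45.6% and 19.9% of all genes), where median-of-ratios scaling gave 8 and 11. Of the immunoproteasome and antigen presentation genes, 11 of 14 rose and 2 fell with luteolin in ES2, and 3 of 12 rose and 7 fell in A2780, or 3 and 8 with median-of-ratios scaling, beside the same shares of all genes. PSMB9, a catalytic subunit of the immunoproteasome, averaged 13.5 TPM in ES2 luteolin and 8.36 TPM in ES2 DMSO cells (0.62 ± 0.13), but 4.61 TPM in A2780 luteolin and 30.6 TPM in A2780 DMSO cells (-2.71 ± 0.17 less the median). With siVRK1, 3 of 14 genes of this list rose and 8 fell in ES2 (26.8% and 28% of all genes). In A2780, 3 of 12 rose and 3 fell (13.8% and 27% of all genes), or 3 and 1 with median-of-ratios scaling. PSMB9 averaged 2.34 TPM in ES2 siVRK1 and 9.16 TPM in ES2 siCtrl cells (-1.6 ± 0.13). TAP1 averaged 42.8 TPM in A2780 siVRK1 and 18.7 TPM in A2780 siCtrl cells (1.15 ± 0.10). In A2780 DMSO libraries TAP1 was at 29.4 to 36.7 TPM and ETV7 at 0.431 to 0.643 TPM. HELZ2 was at 3.31 to 3.45 TPM in ES2 DMSO and 1.99 to 3.43 TPM in A2780 DMSO libraries. ZNFX1 was at 12 to 13 TPM and 3.36 to 3.56 TPM in the same order.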

How the data were processed

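The authors deposited 1 table of TPM per transcript for the 24 libraries. Per the submitters' processing notes, FastQC and kallisto were used with the human build hg19; no source used here gives read depth, trimming or the annotation. Of 193845 lines, 1958 repeated a transcript and were counted once, leaving 191887 transcripts. TPM was summed per gene symbol, leaving out 19 transcripts with more than 1 symbol and 9542 with none (0.514% to 1.03% of TPM). Libraries had 11792 to 12862 genes at 1 TPM or more. Groups come from the sample titles: some treatment labels count up with the replicate (siVRK2, siVRK3) and were read as siVRK1. A column name occurs more than once among the ES2 siVRK1 columns, and those libraries are called a, b and 3.

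Genes at 1 TPM or more in at least 3 libraries of a fit were tested on log2(TPM + 1) with limma-trend (limma 3.58.1, R 4.3.3), over the 12 libraries of a line, or all 24 for differences between lines and for control levels. P-values are two-sided and were adjusted by the Benjamini-Hochberg method across every gene of a fit, with a threshold of 0.05. The added 1 TPM understates changes of low genes. A fold change is on this scale, with its standard error after ±. All 44 genes could be named; library values are given for the largest called changes without overlap whose higher group averaged 2 TPM or more (up to 6 a direction, 5 for the siCtrl against DMSO and line comparisons), means for up to 3 a direction in other lists, and STAT2, IRF9, IRF1 and IRF7 in every comparison. The members and the lists were chosen with earlier results of these data known. Alternatives were a pseudocount of 0.1, other filters, median-of-ratios and quantile scaling, the compared groups alone, a replicate block, coding transcripts alone and leaving out each library. The fits were tested on simulated data. The values of 1 gene of the pathway lists are not reported here. Tables were made with Python 3.11.15 and pandas 2.3.3. Promoter windows are from RefSeq (GRCh38.p14), and no coordinates were converted between builds.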

Additional observations from a re-analysis of the deposited data

Results flagged for a closer look

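A direct test of the difference between the lines (the ES2 effect minus the A2780 effect, limma, adjusted over all genes) picked out these genes, and the values are differences in log2 change. For siVRK1 against siCtrl the ES2 effect was lower for ISG15 (-1.45), IFI27 (-1.13), IFIT3 (-1.02), IRF1 (-0.92), DTX3L (-0.86), IFIT2 (-0.57), PML (-0.54), SAMD9 (-0.38) and IFIT1 (-0.30), and higher for IFIT5 (0.55), IFITM2 (0.49) and PLSCR1 (0.49). IFIT1 was under 1 TPM in ES2, and its call was lost without A2780 siVRK1 1 or 3, A2780 siCtrl 3, ES2 siVRK1 b or ES2 siCtrl 1 or 2 (adjusted p of 0.0591 to 0.0898). SAMD9 was near 0 in A2780, and its call was lost with a pseudocount of 0.1 (adjusted p = 0.206).

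For luteolin against DMSO, given less the median of all genes with the calls of the fit before it is taken away, the ES2 effect was higher for IFI35 (2.09), IFITM1 (1.95), IRF1 (1.78), IFI27 (1.60), UBE2L6 (1.57), IRF9 (1.39), ISG15 (1.28), LGALS3BP (1.27), IFI6 (1.08), IFITM2 (0.99), IFIT3 (0.86), PARP9 (0.86), USP18 (0.78), TRIM25 (0.61), BST2 (0.57) and IFITM3 (0.56). It was lower for HERC5 (-0.83), PML (-0.71), SAMD9 (-0.60), HERC6 (-0.49), STAT2 (-0.43), IFI44 (-0.40), EIF2AK2 (-0.34), SP100 (-0.34) and TRIM21 (-0.21). BST2 in ES2 and IFI44 and SAMD9 in A2780 were near 0. The calls of IFI44 (adjusted p = 0.36) and USP18 (0.0796) were lost with a pseudocount of 0.1, those of SP100 (0.976), BST2 (0.225) and STAT2 (0.0627) with quantile normalization, that of TRIM21 with median-of-ratios scaling (0.144) and that of EIF2AK2 over coding transcripts (0.108).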

How the results depend on the processing

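TPM keeps no read depth, so counting error could not be set beside any value, and 3 libraries a group limit the precision. Of 150 single-gene results, 108 kept their direction and their side of the threshold in every alternative. All 146 recomputed totals of genes called, in either direction, stayed within 1.5 times the reported ones. By direction some did not: for example, with median-of-ratios scaling A2780 siCtrl against DMSO had 2949 higher and 3467 lower calls (reported 6144 and 1412), A2780 luteolin had 3903 higher and 4519 lower (5938 and 2585), and the luteolin difference 3594 higher and 3464 lower (2104 and 5125). The causes of the changes below were not tested, beyond what each alternative does by construction.

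With median-of-ratios scaling the members called higher numbered 4 for A2780 siVRK1 (reported 2), 5 for A2780 luteolin (8) and 4 for A2780 siCtrl against DMSO (13), where those called lower numbered 13 (8). With quantile normalization the A2780 luteolin rises were 4, the A2780 siCtrl against DMSO rises 4, the ES2 siCtrl against DMSO falls 4 (reported 2) and the lower luteolin differences between the lines 5 (9). With the 5 TPM filter the A2780 luteolin rises were 5. Over coding transcripts the A2780 siCtrl against DMSO rises were 8 and the ES2 siVRK1 rises 1 (3). With a pseudocount of 0.1 the higher siVRK1 differences between the lines were 5 (3). Leaving out 1 library gave 2 to 4 rises for A2780 siVRK1, 5 to 8 for A2780 luteolin, 8 to 12 for A2780 siCtrl against DMSO, 1 to 2 falls for ES2 siCtrl against DMSO and 2 to 5 higher siVRK1 differences.

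Directions that turned were those of IFIT5 with luteolin in A2780 (-0.0844 with median-of-ratios scaling, -0.0407 with quantile normalization), OAS3 (-0.115) and IRF7 (-0.33) there with quantile normalization, IRF1 with luteolin in ES2 (-0.00515 and -0.0398 with the same 2 scalings) and the luteolin difference of BST2 (-0.396 with a pseudocount of 0.1). Without 1 library, IRF7 with siVRK1 spanned -0.0794 to 0.134 in A2780 (in the 3 settings where it reached the filter) and -0.197 to 0.103 in ES2, and with luteolin in ES2 IRF9 spanned -0.408 to 0.094 and IRF1 -0.0835 to 0.0753.

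The replicate numbers did not pair the libraries: same-number correlations were -0.0532 to 0.0428. With the number as a replicate block the genes called for siVRK1 numbered 6786 in ES2 (reported 6856; 6775 with the unnumbered columns in the other order, an alternative chosen after seeing the data) and 5049 in A2780 (5318). With this block 20 members fell in ES2, and the calls lost among single-gene results were IFIT1 in the siVRK1 difference and HERC6 in the luteolin difference.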
